A study of Mus musculus with 2 samples.

Results

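Collagens are the triple-helical proteins of the extracellular matrix, and the heart of the mouse embryo makes many of them. The genes described here are all those whose symbol has the form Col, a number, a and a number (Col1a1, Col4a2 and so on). There were 44 such genes among the 17646 genes that carry reads in at least 1 of the libraries. RNA came from whole hearts of BALB/c mouse embryos at embryonic day 13.5. A single library was made from wild-type (WT) tissue and a single library from the genotype SRSF10-/-, which lacks the SR-family splicing factor Srsf10. How many embryos went into each library, their sex, and how the mutant allele was made are not in the labels. With 1 library per genotype there is no replicate check, no difference was tested, and "higher" and "lower" refer to these libraries alone.

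A collagen molecule is a trimer of chains, and each chain holds stretches of triplets that begin with glycine, the only side chain small enough for the core of the helix. Fibrillar collagens have a long unbroken helix and pack into the fibrils of connective tissue, valves and vessel walls. Collagen IV forms the sheet of basement membranes around cardiomyocytes and vessels, and collagen VI forms beaded filaments near cells. FACIT collagens (fibril-associated, with interrupted helices) coat fibrils, multiplexins sit at basement membranes, and other members form hexagonal networks or span the cell membrane. In the embryonic heart, the cushion mesenchyme, epicardium-derived cells, endothelium and myocardium all contribute to this matrix.

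The glycine repeat that defines the family is visible in the coding sequence. By its longest run the fibrillar class stands apart at the upper end, while most of the other classes overlap. The multiplexins, at 30 triplets, and the unclassed genes Col26a1 and Col28a1, at 23 to 28, lie below the rest. The stretches that follow are printed to show how the repeat differs between an unbroken fibrillar helix, an interrupted basement membrane helix and a short FACIT helix. They come from the longest coding sequence of each gene in GENCODE M21 (GRCm38), read 5′ to 3′, and capitals mark the glycine codons (GGN) that start each triplet of a run.
Col1a1, chromosome 11, codons 168 to 191: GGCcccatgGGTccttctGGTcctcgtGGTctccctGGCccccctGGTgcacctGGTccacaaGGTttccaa
Col3a1, chromosome 1, codons 164 to 187: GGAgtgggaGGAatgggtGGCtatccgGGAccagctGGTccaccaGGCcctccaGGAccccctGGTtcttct
Col4a1, chromosome 8, codons 148 to 177: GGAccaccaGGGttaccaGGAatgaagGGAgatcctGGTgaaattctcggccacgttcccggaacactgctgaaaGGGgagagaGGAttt
Col20a1, chromosome 2, codons 1168 to 1191: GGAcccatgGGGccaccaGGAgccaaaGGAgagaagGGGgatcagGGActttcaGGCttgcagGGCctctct

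In Col1a1 the run that starts here went on for 338 triplets without a break, and in Col3a1 for 344. The Col4a1 stretch crosses the end of a run of 40 triplets, with codons that break the pattern before the next run starts. The Col20a1 run held 32 triplets. Counting only runs of at least 5 triplets, the 11 fibrillar genes had 2 or 3 runs each and a longest run of 216 to 344 triplets (median 338). The 6 collagen IV genes had 16 to 24 runs, none longer than 66. The 6 beaded collagen genes held a short helix, with a longest run of 37 to 87 triplets. The pair of multiplexins had 10 and 13 runs with a longest run of 30. The 9 FACIT genes ranged widely, from 32 triplets in Col12a1, Col14a1 and Col20a1 to 113 in the collagen IX genes and Col22a1.

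**Figure D1:**
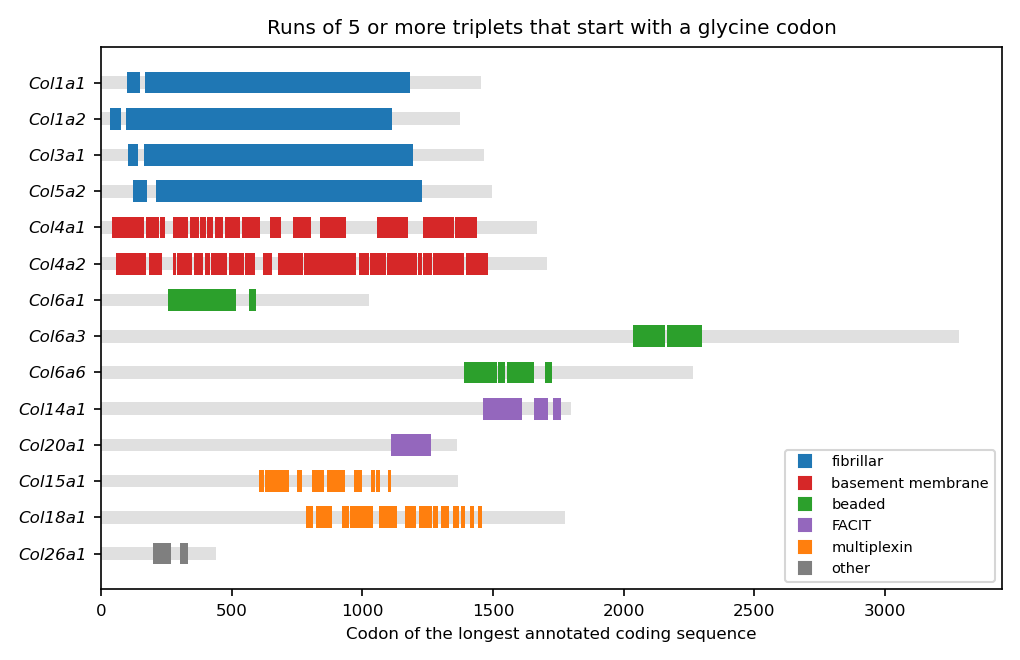
Position of glycine-triplet runs (coloured by class) along the longest coding sequence (grey bar, in codons) of 14 collagen genes. The fibrillar genes show 1 long run each of 338 to 344 triplets, Col4a1 and Col4a2 show 16 and 22 separate runs, and the beaded and FACIT genes show a short helix in a longer chain.

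Collagen transcripts took a smaller share of the knockout library. They made up 284261 of 39.61 M uniquely mapped reads in the wild-type heart, or 0.718% (exact 95% interval 0.715 to 0.720), and 203690 of 38.89 M reads in the knockout heart, or 0.524% (0.522 to 0.526). Summed over the family, reads per library read were 1.37-fold lower in the knockout library (1.36 to 1.38). Levels are given as RPKM, reads per kilobase of gene length and per M library reads. The intervals are exact binomial (Clopper-Pearson) intervals of read numbers and cover counting error only, not variation between embryos. In whole-heart RNA, fewer cells of a type and less RNA per cell cannot be told apart.

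Of the 44 collagen genes, 31 reached 1 RPKM in at least 1 library, and folds are described for these. The lowest of them were Col25a1 (1.39 and 1.12 RPKM) and Col8a1 (1.62 and 2.23), and the highest left out were Col11a2 (0.447 and 0.702) and Col24a1 (0.583 and 0.346). On the scale log2(RPKM + 1), 24 of the 31 were lower in the knockout library and 7 higher, and the median difference was -0.37. Over all 44 genes, 29 were lower. Over all 12329 genes measured the median was -0.01 and 51.8% were lower. A difference of at least 1.5-fold on this scale was seen for 8 collagen genes in the lower direction and 1 in the higher direction. Over all measured genes 1.44% were lower and 1.52% higher by that much. The 8 lower genes were Col1a1, Col1a2, Col5a2, Col6a1, Col6a3, Col6a6, Col15a1 and Col26a1, and the 1 higher gene was Col20a1, the only collagen gene that reached 1 RPKM in a single library, the one where it is high. Just inside the 1.5-fold limit lay Col1a1 at 1.51-fold, and just outside it Col3a1 at 1.497-fold, so the count separates genes of nearly equal ratio. By read ratio, Col3a1 (1.501-fold), Col14a1 (1.55-fold), Col9a2 (1.56-fold) and Col8a2 (1.57-fold) were also at least 1.5-fold lower. The share of all genes past that read ratio was not counted. On the log2(RPKM + 1) scale, at least 2-fold differences were seen for Col15a1 and Col6a6 (lower, 0.333% of all genes) and Col20a1 (higher, 0.211% of all genes). No collagen gene was 3-fold lower (0.0973% of all genes), and Col20a1 was at least 3-fold higher (0.0487% of all genes). The counting interval of the read ratio lay wholly below 1 for 21 of the 31 genes, wholly above 1 for 6, and held 1 for Col9a1, Col9a3, Col11a1 and Col18a1. At this depth such intervals are common: over all measured genes 31.6% lay wholly below 1 and 28% wholly above.

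**Figure D2:**
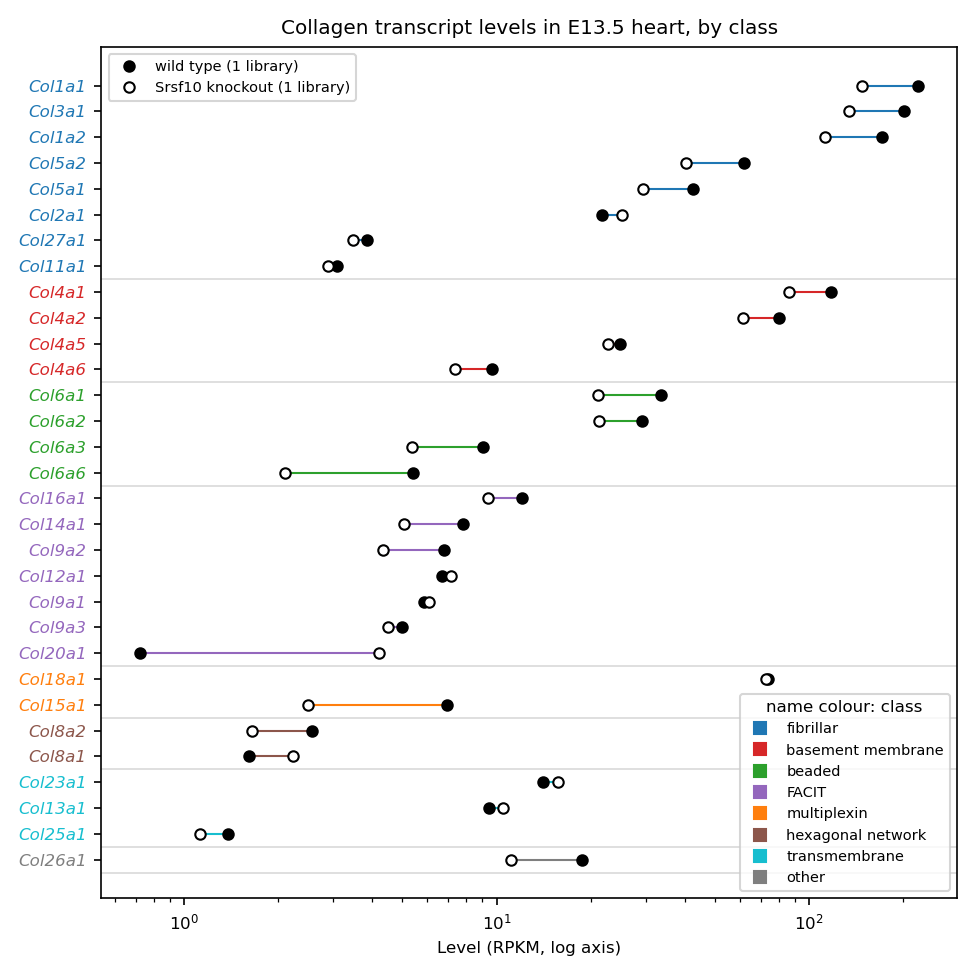
Level of the 31 measured collagen genes in RPKM (log axis) in the wild-type library (filled) and the knockout library (open), grouped by class. Col1a1, Col3a1 and Col1a2 lead in both libraries at 112 to 224 RPKM, most open points lie left of the filled ones, and Col20a1 lies far to the right in the knockout.

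The fibrillar class carried most of the collagen RNA and most of the difference. Its 11 genes summed to 730 RPKM in wild-type heart and 497 in knockout heart, 60.1% and 56.2% of all collagen RPKM, and their reads were 1.47-fold lower (1.46 to 1.48). Of the 8 measured, 7 were lower and 1 higher, with a median log2 difference of -0.55. The 5 chains of interstitial fibrils, collagens I, III and V, had nearly the same ratio, and together they went from 701 to 464 RPKM, 1.51-fold lower in reads (1.496 to 1.520).

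Col1a1 and Col1a2 encode the chains of collagen I, the main tensile fibril. Col1a1 had 223.5 RPKM (52504 reads) in wild-type heart and 148 RPKM (34120 reads) in knockout heart, 1.51-fold lower (1.49 to 1.53). Col1a2 had 171 and 112 RPKM, 1.53-fold lower (1.503 to 1.554). By level, Col1a1 was the 222nd of all genes in wild-type heart and the 336th in knockout heart. Col3a1, the chain of the collagen III homotrimer of compliant tissues, had 201 and 134 RPKM, 1.501-fold lower (1.479 to 1.523). Col5a1 and Col5a2 encode collagen V, which starts fibrils and sets their width. Col5a2 had 61.8 and 40.3 RPKM, 1.53-fold lower (1.497 to 1.573), and Col5a1 42.4 and 29.4 RPKM, 1.44-fold lower (1.41 to 1.48).

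The fibrillar chains typical of cartilage went both ways. Col2a1, the chain of collagen II, which the developing valves also make, had 21.7 RPKM in wild-type heart and 25.2 in knockout heart, 1.16-fold higher (1.11 to 1.21). Col11a1, a chain of collagen XI, had 3.09 and 2.88 RPKM, with a ratio of 0.932 (0.849 to 1.02) that counting error does not separate from 1. Col27a1, a fibrillar chain made in cartilage, had 3.86 and 3.48 RPKM, 1.11-fold lower (1.02 to 1.21). The low fibrillar genes were counted as reads: Col24a1 had 165 reads in wild-type heart and 96 in knockout heart, 1.69-fold lower (1.30 to 2.19), and Col5a3 had 6 and 2. Col11a2, another chain of collagen XI, had 107 and 165 reads, 1.57-fold higher (1.22 to 2.02).

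Of 15 markers of fibroblasts and cushion mesenchyme, cells that make fibrils, 12 were below 0 on the log2 scale and 3 above, with a median of -0.10 and a summed level of 518 RPKM in wild-type heart and 465 in knockout heart. The proteoglycan decorin (Dcn) had 86.9 and 56.1 RPKM, 1.55-fold lower in reads (1.49 to 1.61). It was the 1 member past 1.5-fold on the log2(RPKM + 1) scale. Thy1 had 170 and 104 reads, 1.60-fold lower in reads (1.25 to 2.07) but at -0.45 on that scale. The matrix protein periostin (Postn), the most abundant, had 109 and 96.5 RPKM, whereas Tcf21, a transcription factor of cardiac fibroblast precursors, had 35.1 and 34.8 RPKM. Pdgfra, a growth factor receptor of mesenchyme, had 20.6 and 19.5 RPKM. The 3 higher members were transcription factors: Meox1 had 15.3 and 19.4 RPKM, Twist1 13.5 and 15.3, and Tbx20 76.8 and 82.1. Cartilage markers went both ways: of 12, 10 were listed, 5 below 0 and 5 above, and 7 measured, with a median of -0.03 and sums over all listed of 43.1 and 50.6 RPKM. Sox9, the factor that drives Col2a1, had 14.0 and 13.7 RPKM. Acan (aggrecan), measured only through the wild-type library, had 425 and 226 reads, 1.85-fold lower in reads (1.57 to 2.18). Hapln1, a link protein that heart jelly also holds and the most abundant, had 18.4 and 27.7 RPKM. Cnmd, a cartilage membrane protein, had 65 reads in wild-type heart and 6 in knockout heart, opposite in direction to Col2a1. It too was measured only through the wild-type library, and was the 1 member past 1.5-fold on the log2(RPKM + 1) scale. The part of cell numbers in the collagen differences was not tested.

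Basement membrane collagen IV was lower by a smaller ratio. Its 6 genes summed to 232 RPKM in wild-type heart and 179 in knockout heart, 1.30-fold lower in reads (1.28 to 1.32), with all 4 measured genes lower and none past 1.5-fold. Col4a1 and Col4a2 encode the chains found in nearly every basement membrane. Col4a1 had 117 and 86.2 RPKM, 1.36-fold lower (1.34 to 1.38), and Col4a2 80.0 and 61.6 RPKM, 1.30-fold lower (1.27 to 1.33). Col4a5 and Col4a6 encode chains of more restricted membranes, such as those around smooth muscle. Both genes lie on the X chromosome, and embryo sex and genotype cannot be told apart in these libraries. Col4a6 had 9.69 and 7.35 RPKM, 1.32-fold lower (1.24 to 1.40), and Col4a5 24.8 and 22.8 RPKM, 1.09-fold lower (1.05 to 1.13). Col4a3 had 60 and 76 reads and Col4a4 35 and 88 reads (2.56-fold higher, 1.71 to 3.91), both known from the kidney filter and far below the other chains here. Endothelial and endocardial markers, from cells that lie on such membranes, had a median of -0.05 over 12 genes, 7 below 0 and 5 above, and sums of 443 and 430 RPKM. Among them Cldn5, a tight junction protein, was 1.80-fold lower (312 and 170 reads), and Plvap, a protein of fenestrated capillaries and the most abundant, had 83.6 and 80.0 RPKM. The receptor tyrosine kinase gene Tek was on the other side with 36.0 and 40.5 RPKM, as was the sialomucin gene Emcn with 25.5 and 29.1 RPKM.

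Col4a1 and Col4a2 are transcribed away from each other from a shared promoter, which is printed below. They were 1.36-fold and 1.30-fold lower in the knockout library, with counting intervals that did not overlap. The part of the promoter in these ratios was not tested. The windows run from 250 bases before to 50 bases after each start in RefSeq (GRCm38.p6). Col4a1 lies at chr8:11312777-11313076 on the minus strand and Col4a2 at chr8:11312555-11312854 on the plus strand. Capitals mark the 78 bases that both windows cover, printed on opposite strands. The annotated exons themselves overlap by 22 bases, which is 0.295% of the exonic bases of Col4a1.
Col4a1: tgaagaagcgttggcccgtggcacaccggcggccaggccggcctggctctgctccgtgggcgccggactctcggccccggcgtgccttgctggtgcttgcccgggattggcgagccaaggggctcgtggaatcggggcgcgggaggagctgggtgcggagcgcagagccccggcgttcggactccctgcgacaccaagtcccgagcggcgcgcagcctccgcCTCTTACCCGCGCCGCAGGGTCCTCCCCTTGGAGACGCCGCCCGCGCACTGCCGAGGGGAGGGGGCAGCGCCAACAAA
Col4a2: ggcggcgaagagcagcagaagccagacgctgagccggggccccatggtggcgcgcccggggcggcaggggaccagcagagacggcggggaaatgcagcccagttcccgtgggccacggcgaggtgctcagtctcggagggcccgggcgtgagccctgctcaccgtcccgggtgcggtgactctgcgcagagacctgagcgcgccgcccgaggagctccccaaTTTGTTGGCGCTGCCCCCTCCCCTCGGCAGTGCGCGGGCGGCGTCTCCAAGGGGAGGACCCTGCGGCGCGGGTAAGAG

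The window of Col1a2 (GRCm38.p6, chr6:4505368-4505667, plus strand) is printed because Col1a2 is among the genes past 1.5-fold. Capitals mark the letters CCAAT, or ATTGG on the other strand, and GGGCGG, the cores bound by NF-Y and by Sp1-family factors.
Col1a2: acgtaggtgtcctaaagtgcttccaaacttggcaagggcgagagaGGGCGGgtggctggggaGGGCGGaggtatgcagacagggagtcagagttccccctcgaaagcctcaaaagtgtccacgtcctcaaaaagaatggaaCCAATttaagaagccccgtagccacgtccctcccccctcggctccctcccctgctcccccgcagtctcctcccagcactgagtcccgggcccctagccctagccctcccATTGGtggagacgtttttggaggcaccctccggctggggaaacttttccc

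Windows of this kind existed for 35 of the 44 collagen genes, 38 windows in all. CCAAT on either strand was in 13 of the 38 windows (34.2%) and in 37.4% of all 32851 promoter windows of that length. GGGCGG or its reverse complement CCGCCC was in 23 of 38 (60.5%) against 35.7% of all windows, and TATAAA on either strand in 5 of 38 (13.2%) against 13.6%. These are matches of letters, which do not show binding.

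The measured genes of beaded collagen VI were all lower in the knockout library. Its 6 genes summed to 77.6 RPKM in wild-type heart and 50.01 in knockout heart, 1.58-fold lower in reads (1.54 to 1.62). Of the 4 measured genes 3 were past 1.5-fold, with a median log2 difference of -0.65. Col6a1, Col6a2 and Col6a3 encode the chains of the classical collagen VI trimer. Col6a1 had 33.7 and 21.2 RPKM, 1.59-fold lower (1.52 to 1.66), and Col6a2 29.3 and 21.3 RPKM, 1.38-fold lower (1.32 to 1.43). Col6a3 had 9.07 and 5.37 RPKM, 1.69-fold lower (1.59 to 1.79). Col6a6, a chain related to Col6a3, had 1519 reads (5.40 RPKM) in wild-type heart and 582 reads (2.11 RPKM) in knockout heart, 2.56-fold lower (2.33 to 2.82). Its neighbours on chromosome 9, Col6a5 and Col6a4, had 45 and 28 reads and 21 and 9 reads.

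FACIT collagens went both ways. The class summed to 45.2 RPKM in wild-type heart and 41.0 in knockout heart, and of 7 measured genes 4 were lower and 3 higher. Col14a1, which binds decorin and regulates fibril growth, had 7.81 and 5.05 RPKM, 1.55-fold lower in reads (1.44 to 1.66) though 1.46-fold on the log2(RPKM + 1) scale. Col16a1 had 12.0 and 9.41 RPKM, 1.28-fold lower (1.21 to 1.36). Col12a1, which decorates fibrils of loaded tissues, had 6.71 and 7.16 RPKM, 1.07-fold higher (1.02 to 1.12). The chains of collagen IX, which coats collagen II fibrils, diverged: Col9a2 had 6.79 and 4.34 RPKM, 1.56-fold lower (1.39 to 1.75), whereas Col9a1 had 5.88 and 6.10 RPKM and Col9a3 4.99 and 4.50 RPKM, with intervals that held a ratio of 1. Col22a1 had 72 and 75 reads. Col19a1 had 6 reads in the wild type and no entry in the knockout table, which was taken as 0 reads.

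Col20a1 showed the largest ratio of the family and, among the 31 measured genes, the only one above 1.5-fold in favour of the knockout; Col4a4 and Col11a2, under 1 RPKM in both libraries, also exceeded that ratio in reads. This little-studied FACIT gene had 120 reads (0.723 RPKM) in wild-type heart and 683 reads (4.19 RPKM) in knockout heart, 5.80-fold higher (4.77 to 7.10). The reads were spread along the gene in both libraries, covering 88.5% and 98.0% of its listed length. An annotated transcript on the same strand, BX649560.1, shares 79 exonic bases (1.54%) with it and had 111 and 195 reads, 1.79-fold higher (1.41 to 2.28). Of markers of neural crest and its derivatives, 3 are reported here. Sox10 had 50 and 2 reads, Foxd3 2 and 0, and the neuregulin receptor gene Erbb3 803 and 738. The intervals of the read ratio held 1 for Foxd3 (0 to 5.42) and Erbb3 (0.846 to 1.04). The part of such cells in the Col20a1 ratio was not tested.

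The multiplexins differed from each other. Col18a1, the basement membrane collagen that yields endostatin, had 74.0 RPKM in wild-type heart and 72.7 in knockout heart, with a ratio of 0.982 (0.962 to 1.002). Col15a1, its relative at the junction of basement membrane and fibrils in muscle and capillaries, had 1425 reads (6.96 RPKM) and 503 reads (2.50 RPKM), 2.78-fold lower (2.51 to 3.08). The level of Col18a1 over that of Col15a1 was 10.6 in the wild type (10.1 to 11.2) and 29.1 in the knockout (26.6 to 31.8).

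The remaining classes were small. Of the hexagonal network collagens, which include the chains of endothelial and valve matrix, Col8a2 had 442 and 277 reads, 1.57-fold lower (1.34 to 1.83), and Col8a1 had 327 and 443 reads, 1.38-fold higher (1.19 to 1.60). Col10a1, the marker of hypertrophic cartilage, had 2 and 4 reads. Of the transmembrane collagens, Col23a1 had 14.1 and 15.7 RPKM, 1.12-fold higher (1.06 to 1.17), Col13a1 9.49 and 10.5 RPKM, 1.10-fold higher (1.02 to 1.19), and Col25a1 1.39 and 1.12 RPKM, 1.24-fold lower (1.06 to 1.45). Col17a1, of epithelial hemidesmosomes, had 25 and 37 reads. The anchoring fibril gene Col7a1 had 117 and 139 reads. Col26a1, a secreted protein with a short helix outside the main classes, had 18.8 and 11.1 RPKM, 1.69-fold lower (1.57 to 1.82), and Col28a1 had 5 and 6 reads.

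**Figure D3:**
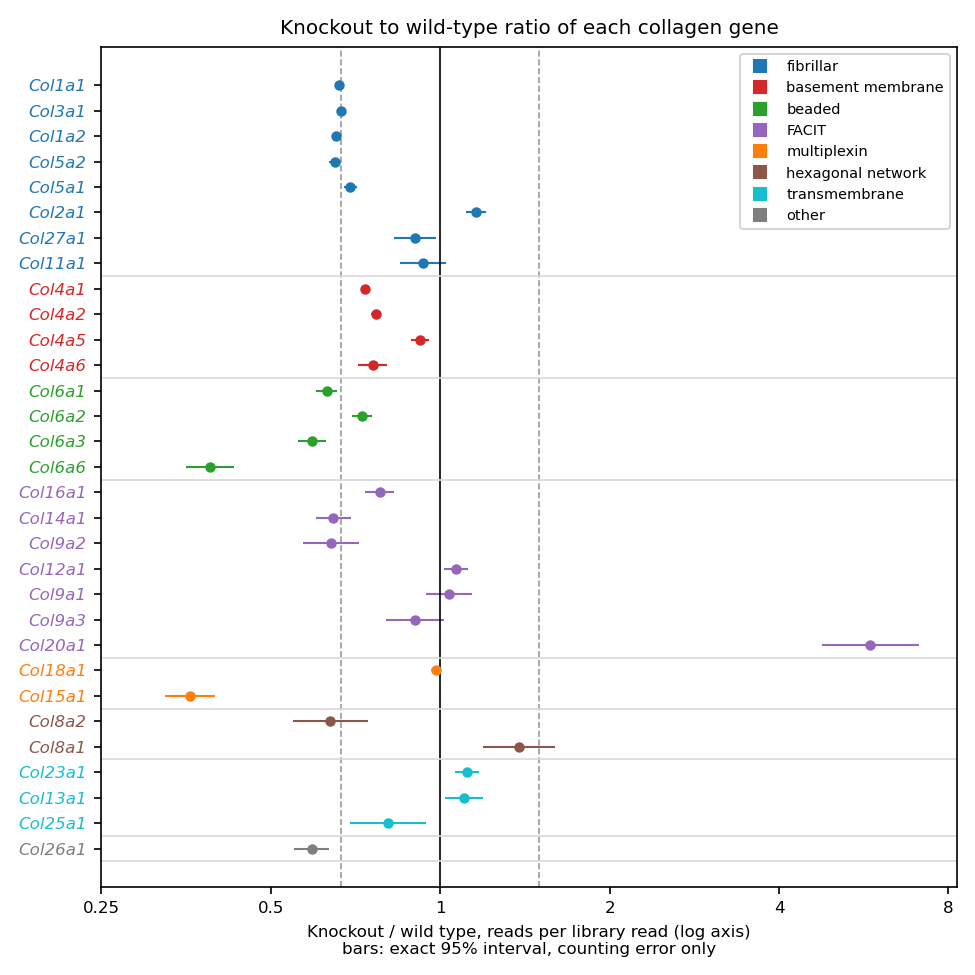
Knockout over wild-type ratio of reads per library read for the 31 measured collagen genes (log axis), with exact 95% counting intervals and dashed lines at 1.5-fold. The interstitial fibrillar and beaded genes lie between ratios of 0.39 and 0.73, the collagen IV genes at 0.74 to 0.92, and Col20a1 alone lies beyond the upper dashed line at 5.80. Beyond the lower dashed line lie the 8 genes past 1.5-fold on the log2(RPKM + 1) scale and, on this read ratio axis, also Col3a1, Col14a1, Col9a2 and Col8a2.

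Some chains of the same molecule or fibril kept their balance and others did not. The level of Col1a1 over that of Col1a2 was 1.30 in the wild type (1.29 to 1.32) and 1.32 in the knockout (1.297 to 1.341), and Col3a1 over Col1a1 was 0.901 (0.890 to 0.913) and 0.907 (0.893 to 0.922). The intervals of both pairs overlapped between the libraries. Col5a1 over Col5a2 was 0.687 and 0.730, and Col4a1 over Col4a2 was 1.46 and 1.40, small shifts whose counting intervals did not overlap. Larger shifts were seen where 1 chain moved more than its partner. Col6a1 over Col6a2 went from 1.15 to 0.996, Col4a5 over Col4a6 from 2.56 to 3.10, and Col9a1 over Col9a2 from 0.866 to 1.40. Col8a2 over Col8a1 crossed 1, from 1.59 (1.38 to 1.84) to 0.737 (0.632 to 0.859). All of these are ratios of RPKM within a library, and the amount of protein was not measured.

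**Figure D4:**
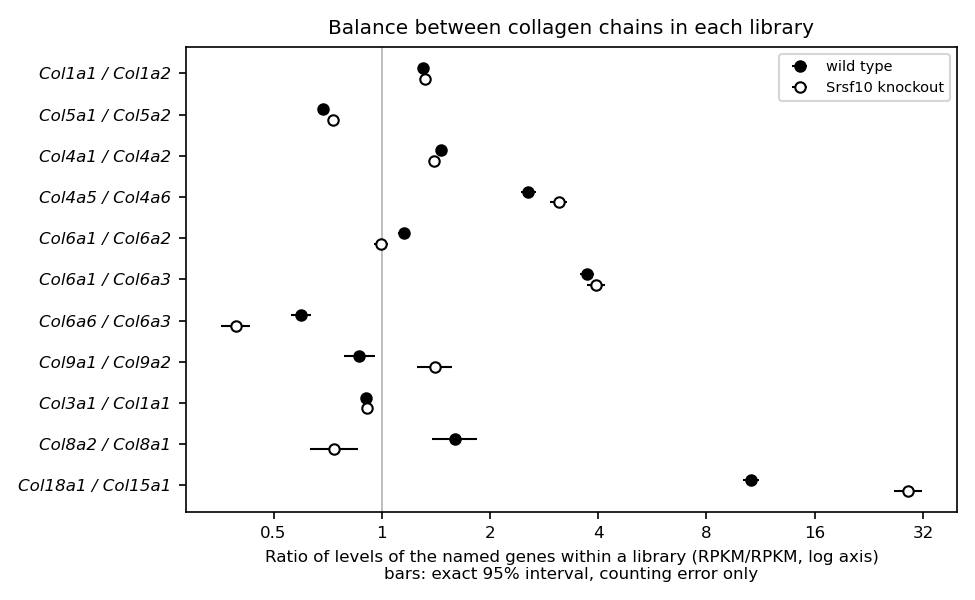
Ratio of the levels (RPKM over RPKM, log axis) of paired collagen genes within the wild-type library (filled) and the knockout library (open), with exact 95% counting intervals. Col1a1/Col1a2 and Col3a1/Col1a1 coincide between libraries, while Col8a2/Col8a1, Col9a1/Col9a2 and Col18a1/Col15a1 separate.

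The lists of genes that make, join and remove collagen had medians nearer 0 than the collagens, though the read ratio of Mmp9 exceeded that of any measured collagen gene. Of 15 genes for prolyl and lysyl modification, 9 were lower and 6 higher, none past 1.5-fold, with a median log2 difference of -0.07. P4hb, the shared subunit of prolyl 4-hydroxylase and the most abundant, had 177 and 160 RPKM. Its catalytic partners P4ha1 and P4ha3 were 1.19-fold and 1.20-fold higher in the knockout library. Of 10 chaperone and export genes, 7 were lower, 3 higher and none past 1.5-fold, with a median of -0.11. Serpinh1, the collagen chaperone HSP47, had 358 and 319 RPKM, 1.12-fold lower (1.10 to 1.14), and Fkbp10, a prolyl isomerase for procollagen, had 51.3 and 37.8 RPKM, 1.36-fold lower (1.30 to 1.41).

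Procollagen processing genes, 5 of 8 measured, had a median of -0.21 with 3 lower and 2 higher: Bmp1, the C-propeptide protease, had 33.6 and 28.9 RPKM, whereas Pcolce, which enhances it, had 47.0 and 55.7. All 6 measured crosslinking genes were below 0 with a median of -0.17. Lox, the lysyl oxidase that crosslinks fibrils, had 15.3 and 11.1 RPKM, 1.38-fold lower (1.30 to 1.46), and Pxdn, the peroxidase that crosslinks collagen IV, 72.5 and 59.7 RPKM, 1.21-fold lower (1.19 to 1.24). Tgm2, a transglutaminase and the most abundant, had 131 and 126 RPKM. Collagen receptors had a median of -0.03 over 6 measured genes, 3 lower and 3 higher. Itgb1, the beta chain of the collagen-binding integrins, had 196 and 212 RPKM, and its partner Itga1 12.3 and 14.9 RPKM. Mrc2, an endocytic collagen receptor, had 13.6 and 10.8 RPKM, 1.25-fold lower (1.19 to 1.32), and Ddr2, a receptor tyrosine kinase for fibrillar collagen, 3.88 and 3.39 RPKM.

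Of 11 measured genes for collagen breakdown and its inhibitors, 9 were lower and 2 higher on the log2(RPKM + 1) scale, with a median of -0.17, and 1 was past 1.5-fold on that scale, in the higher direction. Mmp2, a gelatinase and the most abundant, had 75.8 and 69.1 RPKM, and its inhibitor Timp2 54.4 and 41.6 RPKM, 1.31-fold lower (1.26 to 1.35). The gene past 1.5-fold, measured only through the knockout library, was Mmp9, a gelatinase of neutrophils and macrophages, with 23 reads in wild-type heart and 152 in knockout heart (6.73-fold higher in reads, 4.32 to 10.9), and the neutrophil collagenase Mmp8 had 0 and 14 reads. Fap, a surface protease of activated fibroblasts measured only through the wild-type library, had 119 and 43 reads, 2.72-fold lower in reads (1.90 to 3.95) but at -0.58, short of 1.5-fold, on the log2(RPKM + 1) scale, which understates the change of a gene this low.

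**Figure D5:**
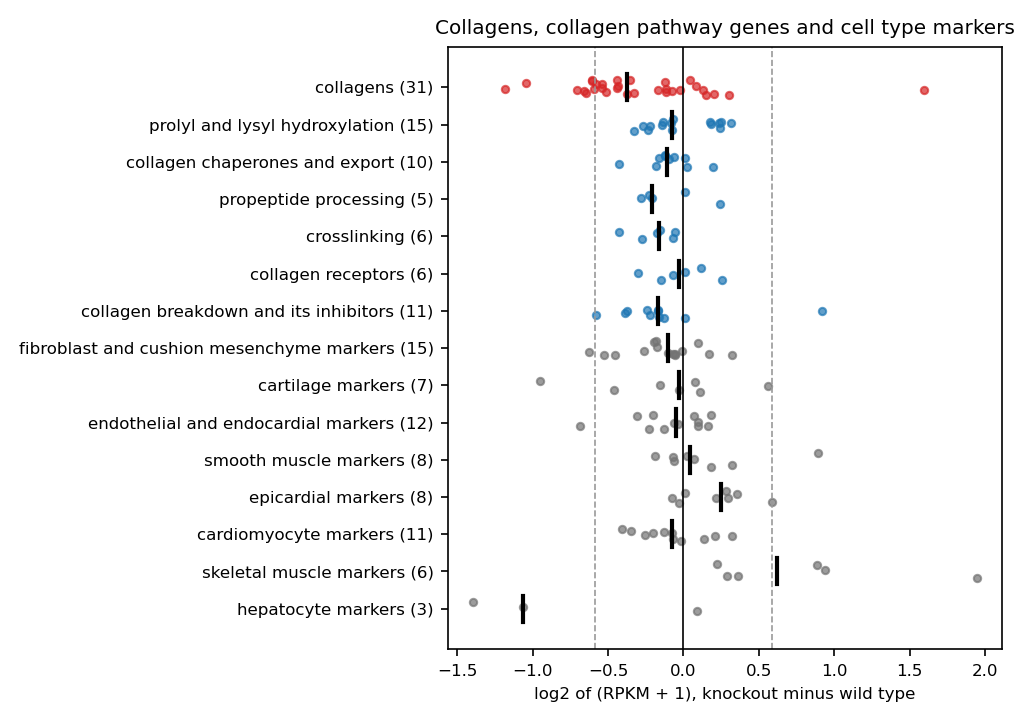
Difference on the log2(RPKM + 1) scale, knockout minus wild type, for each measured gene of the collagen family (red), the collagen pathway lists (blue) and 8 cell type lists (grey), with the number measured in brackets, the median as a black bar and dashed lines at 1.5-fold. The collagens have a median of -0.37, the pathway lists medians from -0.21 to -0.03. The hepatocyte row holds 3 of 7 listed genes and the skeletal muscle row 6 of 9, those that reached 1 RPKM in either library.

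Facts of the libraries touch these values. Srsf10 had 5245 reads in wild-type heart and 212 in knockout heart, which matches the labels. Heart identity was clear, with cardiac actin (Actc1) at 6350 and 5799 RPKM. Y-linked Ddx3y had 937 and 0 reads, so embryo sex and genotype cannot be told apart. Transcripts typical of other tissues differed as well, in both directions. Of 7 listed hepatocyte markers 4 were lower and 3 higher, all on few reads. Alb had 88 and 0 reads, Afp 145 and 4, Apoa1 19 and 2 and Serpina1a 2 and 0. Alb (-1.06) and Afp (-1.39) were past 1.5-fold on the log2(RPKM + 1) scale, both measured only through the wild-type library. Apob had 74 and 199 reads, Ttr 22 and 34 and Apoa2 39 and 42. The intervals of the read ratio held 1 for Ttr (0.894 to 2.83), Apoa2 (0.692 to 1.74) and Serpina1a. Of 9 listed skeletal muscle markers 6 were higher and 3 lower. The fast skeletal troponin Tnni2 had 24.4 and 96.8 RPKM, whereas the embryonic myosin gene Myh3 had 87 and 8 reads and the myogenic factors Myod1 and Myog 18 and 2 and 41 and 18. Summed levels were 375 and 599 RPKM for the skeletal muscle list, 5.82 and 3.27 for the hepatocyte list, 137 and 160 for the epicardial list and 2598 and 3023 for the smooth muscle list. The medians on the log2 scale were 0.25 for the epicardial list (8 genes), 0.05 for the smooth muscle list (8) and -0.08 for cardiomyocyte markers (11). Past 1.5-fold on the log2(RPKM + 1) scale were also Tnnt3 (3.53 and 7.36 RPKM) and Myl1 (119 and 229) of fast skeletal muscle and Tagln of smooth muscle (84.4 and 157). Just short of it lay Aldh1a1 of the epicardial list, with 140 and 246 reads, 1.79-fold higher in reads (1.45 to 2.22). Of that list 6 genes were higher and 2 lower. Acta1, Apoa2, Upk3b and Myl9, the most abundant of these lists in that order, had wild-type over knockout ratios of 0.858, 0.912, 0.820 and 0.882. The part of any of these in the collagen differences was not tested.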

How the data were processed

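Heart RNA of 1 wild-type and 1 SRSF10-/- mouse embryo library was analysed. Per the submitters' processing notes, reads were aligned with Bowtie 0.12.2 and the genome build was mm9. For annotation, read filters and strand use, the sources used here say nothing. Per the file headers, the deposited counts are numbers of uniquely mapped reads, and they summed to the header totals of 39612561 and 38886434. The authors' RPKM was recomputed from count, listed length and total to within 2.2e-14. The deposited coverage score is the percent of the listed length with reads, and reached 100.06, so it was used only as a description. The deposited length column, in bases, was used for chain ratios. A gene absent from a table was taken as 0 reads.

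Symbols came from a table matched on Ensembl identifier (17196 of 17646 genes). The 44 members, the classes, the pathway and marker lists and the fold limits were chosen with earlier results of these data known. Every member is named with values, and of each list the most abundant member, those past the limit and further members chosen after their values were seen. Some marker genes are not reported here. Differences are log2(RPKM + 1), which understates folds of low genes, for genes with at least 1 RPKM in one library. Fold values with intervals are ratios of reads per library read with exact conditional binomial 95% intervals (scipy 1.17.1). The interval code was run on simulated reads that held counting error only, which the intervals assume. That run cannot show how they behave with embryo variation or copied reads. Without molecular identifiers, reads may be copies of 1 molecule, so intervals cover counting error only. No model was fitted, as groups of 1 library have no residual degrees of freedom. TMM factors came from edgeR 4.0.16. No collagen gene shared over 4.58% of its 31-base words with another gene's transcripts in GENCODE M21, and 234 exonic bases of Col9a3 overlap Tcfl5 (19 and 16 reads) on the other strand.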

Additional observations from a re-analysis of the deposited data

How the results depend on the processing

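With 1 library per genotype, no replicate could be left out, and embryo variation, sex and dissection cannot be separated from genotype. No paired analysis was possible because each group holds 1 library. The median log2 difference of -0.37 was -0.25 with a pseudocount of 5, -0.12 with all 44 genes kept and -0.48 for genes of at least 5 RPKM. The 8 genes lower by 1.5-fold became 2 with a pseudocount of 5 (0.438% of all genes), 2 under a 2-fold limit (0.333%) and 0 under a 3-fold limit (0.0973%), with 12 under a pseudocount of 0.1 (2.78%). The 1 higher gene, Col20a1, is below 5 RPKM, so that filter left 0. Of all genes, 1.15% were lower at 5 RPKM or more, against 8 of 24 collagen genes. The family's summed read ratio of 0.730 was 0.739 when scaled to reads outside the mitochondrial genes, an alternative chosen after seeing the data, and 0.790 without Col1a1, Col1a2 and Col3a1. TMM factors, median of ratios size factors and centring moved the count of lower genes to between 7 and 9 (1.35% to 1.48% of all genes). No scaling turned the direction of any of the 44 read ratios. For a gene of 5000 bases, 1 RPKM is 198 reads in the wild type, and of the 13 low genes 3 had an interval below 1 and 2 above 1. The same count over all genes under 1 RPKM was not made, so these numbers cannot be set against a share.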

Other observations

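Srsf10 lies on chromosome 4, as do 5 of the measured collagen genes, and all 5 were lower in the knockout library, with a median log2 difference of -0.44. They were Col15a1 (2.78-fold lower), Col8a2 (1.57-fold), Col9a2 (1.56-fold), Col16a1 (1.28-fold) and Col27a1 (1.11-fold). Of the other 26 measured collagen genes 19 were lower, with a median of -0.36, and the 776 measured genes of chromosome 4 had a median of -0.01. The levels of Col15a1, Col9a2 and Col8a2 were also lower in the knockout library relative to a related chain on another chromosome, Col18a1, Col9a1 and Col8a1. Larger shifts were those of Col20a1, not on chromosome 4, whose level over that of Col14a1 went from 0.0926 to 0.831 and over that of Col12a1 from 0.108 to 0.585. No such pair was formed for Col16a1 and Col27a1, and for these the direction depends on the partner. The knockout over wild-type read ratio of Col16a1 (0.781) lay above that of Col14a1 (0.646) and below that of Col12a1 (1.07). That of Col27a1 (0.902) lay above that of Col5a1 (0.693) and below that of Col2a1 (1.16). The part of position in these values was not tested.

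A few further matrix genes were chosen after their values were seen. Sparc, a collagen-binding glycoprotein, had 576 RPKM in wild-type heart and 526 in knockout heart, 1.10-fold lower (1.08 to 1.11). Vcan, the hyaluronan-binding proteoglycan of the cushions, had 59.3 and 97.4 RPKM, 1.64-fold higher (1.62 to 1.67), and its link protein Hapln1 18.4 and 27.7 RPKM.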
